A study of Saccharomyces cerevisiae with 12 samples.

Results

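The genes described here are 10 genes of trehalose and glycogen metabolism in the budding yeast Saccharomyces cerevisiae: TPS1 (YBR126C), TPS2 (YDR074W), TPS3 (YMR261C), TSL1 (YML100W), NTH1 (YDR001C), PGM2 (YMR105C), GSY1 (YFR015C), GSY2 (YLR258W), GLC3 (YEL011W) and GPH1 (YPR160W). They were chosen by identifier, as a pathway, from the 7112 gene identifiers of the deposited table that could be analysed, and all 10 were among the 6361 genes with enough fragments to be tested. RNA was measured by sequencing in 12 libraries of 6 strains, 2 libraries of each. All strains share the background MGD353-13D and grew in rich medium (YPD) to the middle of exponential growth. The mutants were an SDC1 point mutant that also lacks JHD2 (Sdc1_mut_Jhd2_KO), an SDC1 deletion (Sdc1_KO), an SDC1 allele without its DPY30 motif (Dpy30_KO), the point mutant alone (Sdc1_mut) and a JHD2 deletion (Jhd2_KO), set against the wild type (WT). SDC1 encodes the DPY30-type subunit of the Set1 complex, which methylates lysine 4 of histone H3, and JHD2 encodes the demethylase that acts on the same residue. The labels do not state the residue changed in the point mutant, nor if the paired libraries came from separate clones or cultures. The p-values therefore measure only the spread between these libraries, which may be technical.

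Yeast stores glucose as trehalose, a disaccharide that also protects proteins and membranes under stress, and as glycogen, a branched polymer. Both are built from UDP-glucose, which is made from glucose 6-phosphate through glucose 1-phosphate. Both are known to accumulate when growth slows or stress sets in, and many of their genes are induced together by the general stress factors Msn2 and Msn4, which bind the stress response element. Cells growing exponentially in glucose are known to hold little of either.

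Library depth ran from 8652878 to 26041718 fragments, and the 10 genes drew 2851 to 77697 fragments each, so counting error was small beside the spread between libraries. SDC1 had 0 fragments in both Sdc1_KO libraries, and JHD2 had 0 in the libraries of both strains that lack it. Mitochondrially encoded RNA was nearly missing, at 2 to 17 fragments per library, in Sdc1_mut_Jhd2_KO, Dpy30_KO and Sdc1_mut, against 29200 to 62765 in Sdc1_KO, Jhd2_KO and WT. Strains of both kinds appear below, and the part of this difference in the results was not tested. Where strains of both kinds are compared, the allele and this difference cannot be told apart. The Sdc1_KO libraries stood apart from each other: replicate 1 was lower than replicate 2 for all 10 genes, with a median log2 difference of -0.80, and for 55.7% of all genes tested. In the other strains the median difference between the libraries ran from -0.03 to 0.16 for the 10 genes. In WT, replicate 1 was higher than replicate 2 for all 10 genes (median 0.16) and for 48.7% of all genes tested. Replicate 1 of Dpy30_KO was higher for 9 of the 10 genes (median 0.11). The library numbers in the labels run in sequence except that of WT replicate 1. Results are therefore given without either library where that changes a call.

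Upstream of all 10 genes the annotated genome holds at least 2 copies of the stress response element core, 5′-CCCCT-3′, which reads AGGGG when it lies on the other strand. The search covered the 500 bases before each start codon on both strands, looked for this motif alone, and found 2 to 6 matches per gene. Of 6019 protein-coding genes, 34.0% held at least 1 match in such a window and 8.12% held at least 2. The stretches that carry the matches are shown for PGM2 and GSY1, which were lower in all 4 strains with an SDC1 change, and for TPS2, TSL1 and GSY2, whose levels parted from them. They come from RefSeq assembly R64, the sacCer3 build, and read 5′ to 3′ on the strand of the gene, with the motif in capitals. The stretch of PGM2 is chrXIII:477813-478017 on the minus strand, that of GSY1 is chrVI:176714-176863 on the minus strand, that of TPS2 is chrIV:593398-593594 on the plus strand, that of TSL1 is chrXIII:70241-70468 on the plus strand and that of GSY2 is chrXII:660334-660529 on the plus strand.
PGM2: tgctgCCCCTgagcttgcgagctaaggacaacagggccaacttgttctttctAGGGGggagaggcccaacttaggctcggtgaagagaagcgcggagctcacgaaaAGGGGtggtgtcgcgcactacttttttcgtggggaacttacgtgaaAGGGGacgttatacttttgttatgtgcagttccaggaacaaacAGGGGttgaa
GSY1: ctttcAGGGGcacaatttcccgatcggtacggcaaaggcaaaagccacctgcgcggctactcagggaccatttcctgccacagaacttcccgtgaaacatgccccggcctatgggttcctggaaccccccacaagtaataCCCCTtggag
TPS2: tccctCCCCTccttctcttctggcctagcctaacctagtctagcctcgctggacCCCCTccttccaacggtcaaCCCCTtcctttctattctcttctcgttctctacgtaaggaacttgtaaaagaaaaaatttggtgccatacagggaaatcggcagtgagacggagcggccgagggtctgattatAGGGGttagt
TSL1: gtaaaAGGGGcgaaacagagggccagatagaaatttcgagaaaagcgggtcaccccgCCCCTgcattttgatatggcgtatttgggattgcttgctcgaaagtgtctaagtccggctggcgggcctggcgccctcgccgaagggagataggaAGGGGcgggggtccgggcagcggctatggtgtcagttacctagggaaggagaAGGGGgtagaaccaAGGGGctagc
GSY2: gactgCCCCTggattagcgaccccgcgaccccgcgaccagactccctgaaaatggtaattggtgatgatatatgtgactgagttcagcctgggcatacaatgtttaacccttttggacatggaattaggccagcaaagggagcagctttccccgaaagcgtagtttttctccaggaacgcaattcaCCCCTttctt

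PGM2 and TSL1 each held 5 matches and TPS2 held 4, while GSY1 and GSY2 held 2 each. TPS1 had the most, 6, followed by 3 in NTH1 and GLC3 and 2 in TPS3 and GPH1. The number of matches did not separate the genes that were lower in every SDC1 mutant from those that were not, as PGM2 and TSL1 share the same number. The coding ranges of these genes are chrXIII:475897-477606 for PGM2, chrVI:174265-176391 for GSY1, chrIV:593893-596583 for TPS2, chrXIII:70624-73920 for TSL1 and chrXII:660716-662833 for GSY2. A match describes the sequence and does not show that a factor binds there.

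**Figure D1:**
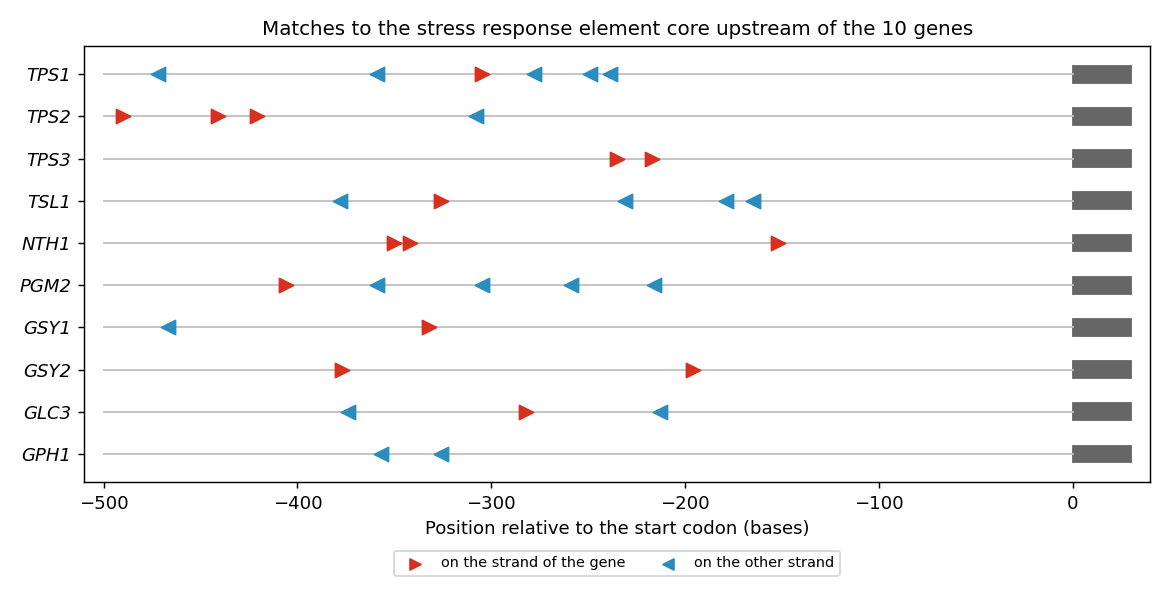
Positions of the stress response element core in the 500 bases before the start codon of each of the 10 genes. The x axis gives the distance from the start codon in bases (grey box, not to scale with the gene), and a triangle marks the first base of a match on the strand of the gene (red) or on the other strand (blue); every gene has at least 2.

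In WT the 10 genes differed more than 10-fold in level per transcript length (FPKM). PGM2, the phosphoglucomutase that makes glucose 1-phosphate, was highest, at 1398 and 1327 FPKM. GSY1 (1177 and 1003), TPS1 (1149 and 1072) and GPH1 (1083 and 919.6) followed, and these 3 overlapped each other. GLC3 stood at 739 and 597 FPKM, above TPS2 at 559 and 483. NTH1 (448 and 366), GSY2 (361 and 327) and TSL1 (331 and 285) came next, where GSY2 overlapped TSL1 but not NTH1. TPS3 was lowest, at 128 and 112 FPKM.

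Levels in the separate libraries are given below as CPM, with replicate 1 before replicate 2. CPM here divide the fragments by the library total times a scaling factor (TMM, edgeR), which was 1.129 for Sdc1_KO replicate 1 and 0.957 for Sdc1_KO replicate 2, and 0.975 to 1.010 for the other libraries. The factors widened the gap between the Sdc1_KO libraries: without them 9 of the 10 genes were lower in replicate 1 than in replicate 2, with a median log2 difference of -0.57, beside -0.80 with them. Levels are relative to the other RNA sequenced, so a fall in the RNA of a gene and a rise in other RNA cannot be told apart. Nor can a fall in RNA per cell and a fall in the share of cells that transcribe a gene. Below, a strain is said to lie above or below WT where its libraries did not overlap those of WT. Of all genes, 81.5% had such libraries in Sdc1_mut_Jhd2_KO, 72.0% in Sdc1_KO, 79.8% in Dpy30_KO, 80.5% in Sdc1_mut and 55.0% in Jhd2_KO. This order alone therefore does not set a gene apart.

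Trehalose is made by a complex of a synthase (TPS1), a phosphatase (TPS2) and 2 related larger subunits with regulatory roles (TPS3 and TSL1). TPS1 stood at 1639 and 1597 CPM in Sdc1_mut_Jhd2_KO, 876 and 1316 in Sdc1_KO, 1191 and 1180.1 in Dpy30_KO, 1219.7 and 1255 in Sdc1_mut and 2161 and 2124 in Jhd2_KO, against 1979 and 1909.7 CPM in WT. Every library with an SDC1 change lay below both WT libraries. TPS2 stood at 2284 and 2154 CPM in Sdc1_mut_Jhd2_KO, 481 and 933 in Sdc1_KO, 1164 and 1076 in Dpy30_KO, 1064 and 992 in Sdc1_mut and 1309.7 and 1323 in Jhd2_KO, against 1424 and 1292 CPM in WT. Here Sdc1_mut_Jhd2_KO lay above WT, and the other SDC1 mutants lay below it.

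TPS3 had the lowest level of the complex and followed TPS1. It stood at 356 and 332 CPM in Sdc1_mut_Jhd2_KO, 245 and 294 in Sdc1_KO, 273 and 289 in Dpy30_KO, 265 and 287 in Sdc1_mut and 422 and 435 in Jhd2_KO, against 481 and 418 CPM in WT. All 8 libraries with an SDC1 change lay below WT. TSL1, its homologue, stood at 2256 and 2056 CPM in Sdc1_mut_Jhd2_KO, 649.6 and 973 in Sdc1_KO, 1352 and 1337 in Dpy30_KO, 1148 and 1160.1 in Sdc1_mut and 1637 and 1707 in Jhd2_KO, against 1496 and 1309 CPM in WT. TSL1 was highest in Sdc1_mut_Jhd2_KO, and in Dpy30_KO it lay within the WT range.

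NTH1 encodes the main neutral trehalase, which splits trehalose into glucose. It stood at 1178 and 1012 CPM in Sdc1_mut_Jhd2_KO, 622 and 703 in Sdc1_KO, 933 and 907 in Dpy30_KO, 817 and 853 in Sdc1_mut and 1145 and 1067 in Jhd2_KO, against 1098 and 963 CPM in WT. Sdc1_KO was the lowest strain, and Sdc1_mut_Jhd2_KO and Jhd2_KO overlapped WT.

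PGM2, which supplies both pathways, showed the widest gap. It stood at 857 and 883 CPM in Sdc1_mut_Jhd2_KO, 544 and 1022 in Sdc1_KO, 831 and 758 in Dpy30_KO, 814 and 746 in Sdc1_mut and 2355 and 2301 in Jhd2_KO, against 2257 and 2229 CPM in WT. No library with an SDC1 change came near the WT range, and Jhd2_KO lay just above it.

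Glycogen is extended by 2 glycogen synthases, GSY1 and GSY2, of which GSY2 is known as the main isoform, and is branched by GLC3. GSY1 stood at 1419.9 and 1372 CPM in Sdc1_mut_Jhd2_KO, 792 and 1692 in Sdc1_KO, 1355 and 1166 in Dpy30_KO, 1162 and 1214 in Sdc1_mut and 2018 and 2054 in Jhd2_KO, against 2604 and 2339 CPM in WT. All 5 mutants lay below WT. GSY2 stood at 1039 and 981 CPM in Sdc1_mut_Jhd2_KO, 391 and 706 in Sdc1_KO, 1009 and 866 in Dpy30_KO, 819.7 and 766 in Sdc1_mut and 742 and 727 in Jhd2_KO, against 783 and 737 CPM in WT. GSY2 lay above WT in Sdc1_mut_Jhd2_KO and Dpy30_KO, and below it in Sdc1_KO.

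GLC3 stood at 1001 and 1007 CPM in Sdc1_mut_Jhd2_KO, 580.2 and 980 in Sdc1_KO, 916 and 842 in Dpy30_KO, 805 and 785 in Sdc1_mut and 1241 and 1221 in Jhd2_KO, against 1604 and 1399.7 CPM in WT. As with GSY1, all mutants lay below WT, though in Jhd2_KO neither gene passed the main test given below. GPH1, the glycogen phosphorylase that releases glucose 1-phosphate, stood at 2046 and 2071 CPM in Sdc1_mut_Jhd2_KO, 808 and 2265 in Sdc1_KO, 1717 and 1601 in Dpy30_KO, 1594 and 1648 in Sdc1_mut and 2791 and 2696 in Jhd2_KO, against 2953 and 2645 CPM in WT. The Sdc1_KO libraries differed most in GPH1, where replicate 1 was the lowest and replicate 2 the highest of the 8 libraries with an SDC1 change.

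**Figure D2:**
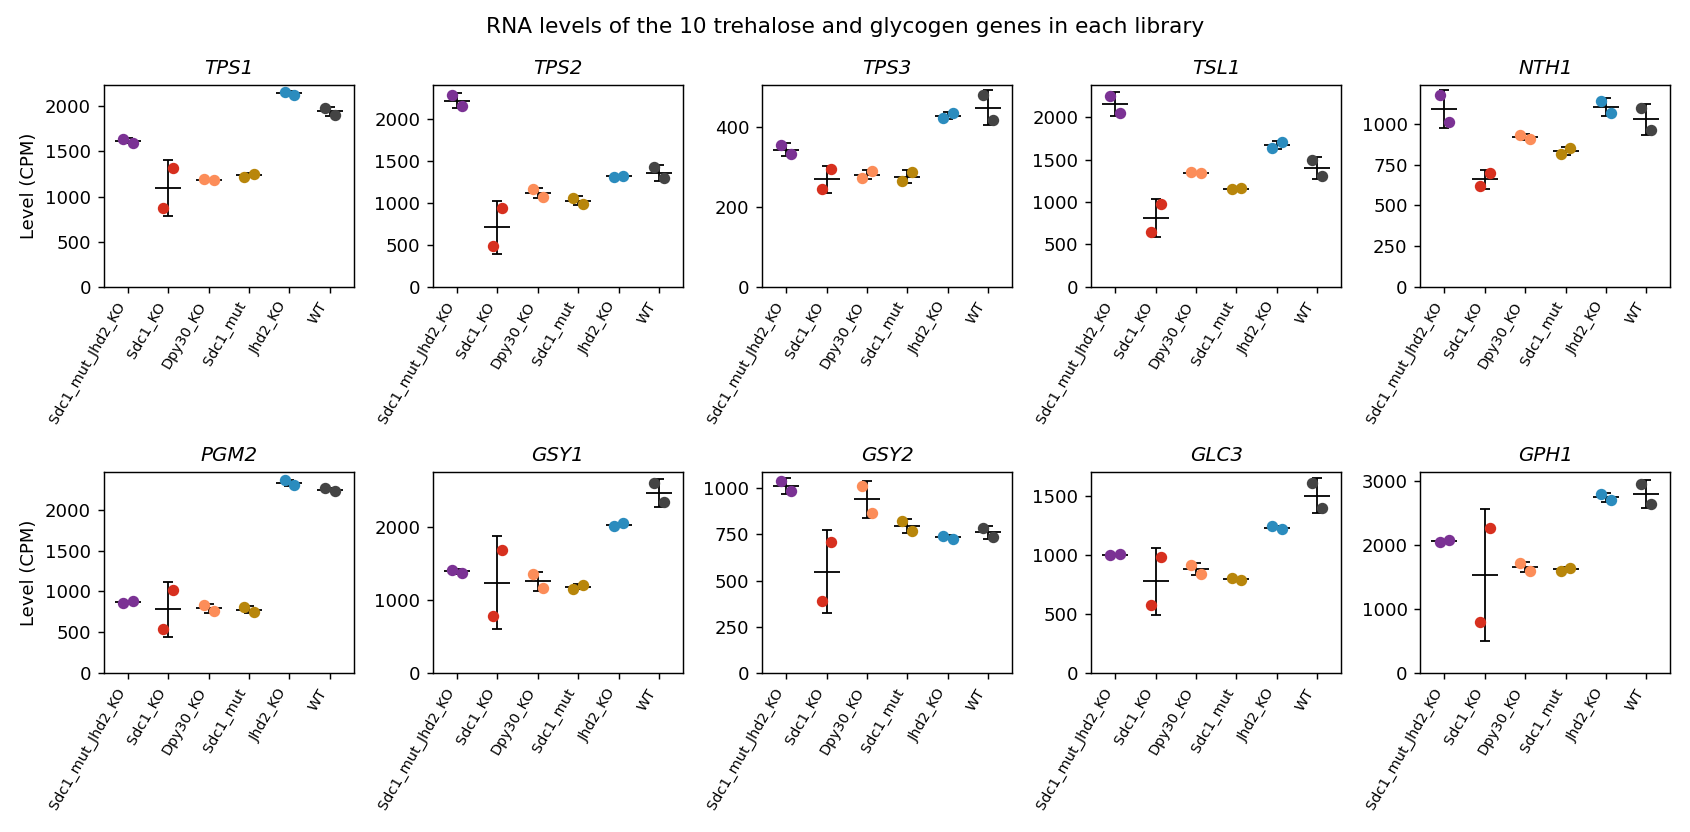
Levels of the 10 genes in CPM (y axis, from 0), by strain (x axis). Points are the 2 libraries of a strain (replicate 1 on the left), and the black bar with whiskers is their mean ± SD; PGM2 lay at 544 to 1022 CPM in all 8 libraries with an SDC1 change, against 2229 and 2257 CPM in WT.

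The SDC1 deletion was compared with WT to ask what loss of the subunit does to RNA levels. In Sdc1_KO 9 of the 10 genes fell and none rose, while 50.4% of all genes tested were called and 22.4% were called lower at an adjusted p under 0.05 (edgeR's quasi-likelihood test, Benjamini-Hochberg adjustment). The median log2 fold change of the 10 genes was -0.85, beside 0.04 for all genes. PGM2 fell most (-1.52 ± 0.21 SE, adjusted p = 0.00012), to 0.349 of the WT level, followed by GSY1 (-0.99 ± 0.25), TPS2 (-0.94 ± 0.22) and GLC3 (-0.94 ± 0.19). TPS1 fell by 0.83 ± 0.16, TSL1 by 0.79 ± 0.16, TPS3 by 0.74 ± 0.12 and NTH1 by 0.64 ± 0.12. GPH1 fell by 0.87 ± 0.31 (adjusted p = 0.035), and GSY2 did not pass (-0.47 ± 0.20, adjusted p = 0.068). All 10 genes were lower in both Sdc1_KO libraries than in both WT libraries, and 72.0% of all genes had libraries that did not overlap in this comparison.

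The size of these falls rested on the Sdc1_KO library used. Without replicate 2, the log2 fold changes ran from -0.73 (NTH1) to -2.05 (PGM2) and all 10 genes were called. Without replicate 1 they ran from -0.13 (GSY2) to -1.16 (PGM2) and 9 genes were called. In a fit of the Sdc1_KO and WT libraries alone, TPS2 (adjusted p = 0.05), GSY1 (0.063) and GPH1 (0.16) were no longer called. The call of GPH1 also ended without WT replicate 1 (-0.78, adjusted p = 0.14) or without WT replicate 2 (-0.94, adjusted p = 0.072).

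Removal of the DPY30 motif left the trehalose and glycogen genes split. In Dpy30_KO 5 of 10 genes fell and none rose, while 52.4% of all genes were called and 25.1% were called lower, so the share of these genes called was near that of all genes. PGM2 (-1.50 ± 0.21, adjusted p = 0.0001), GSY1 (-0.97 ± 0.25, adjusted p = 0.0054), GLC3 (-0.77 ± 0.19), TPS1 (-0.71 ± 0.16) and TPS3 (-0.68 ± 0.12) fell. GPH1 was at -0.75 ± 0.31 (adjusted p = 0.059), TPS2 at -0.28 ± 0.22, NTH1 at -0.16 ± 0.12, TSL1 at -0.06 ± 0.16 and GSY2 at 0.30 ± 0.20, and these 5 did not pass. The median of the 10 was -0.70, beside 0.02 for all genes. Since the fit pools the spread of all strains, the wide gap between the Sdc1_KO libraries enters the error of every comparison. In a fit of the other 10 libraries, chosen after seeing the data, GPH1 (-0.75 ± 0.08, adjusted p = 5.4e-07) and TPS2 (-0.28 ± 0.09, adjusted p = 0.0089) were also called lower and GSY2 was called higher (0.30 ± 0.09, adjusted p = 0.0066). That made 8 of 10 called, against 60.5% of all genes in that fit. The call of GSY1 ended without Dpy30_KO replicate 2 (-0.87, adjusted p = 0.055).

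In the point mutant, too, the genes that passed the test all fell. In Sdc1_mut 7 of 10 genes fell and none rose, while 52.5% of all genes were called and 24.7% were called lower. PGM2 fell by 1.52 ± 0.21 (adjusted p = 9.1e-05), GSY1 by 1.06 ± 0.25, GLC3 by 0.92 ± 0.19, TPS3 by 0.70 ± 0.12 and TPS1 by 0.65 ± 0.16. The calls of GPH1 (-0.79 ± 0.31, adjusted p = 0.05, under the threshold before rounding) and NTH1 (-0.30 ± 0.12, adjusted p = 0.049) were marginal. Without WT replicate 1, the adjusted p was 0.18 for GPH1 and 0.28 for NTH1. Both calls also ended without Sdc1_mut replicate 1 (0.17 and 0.2) or Sdc1_mut replicate 2 (0.14 and 0.12), and that of GPH1 without WT replicate 2 (0.095). TPS2 (-0.40 ± 0.22), TSL1 (-0.28 ± 0.16) and GSY2 (0.06 ± 0.20) did not pass, and the median of the 10 was -0.68, beside 0.02 for all genes. In the fit of the 10 libraries other than Sdc1_KO, 9 of 10 genes were called lower, all but GSY2, against 60.3% of all genes called. There GPH1 had an adjusted p of 3e-07, NTH1 of 0.0092, TPS2 of 0.00053 and TSL1 of 0.0095.

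**Figure D3:**
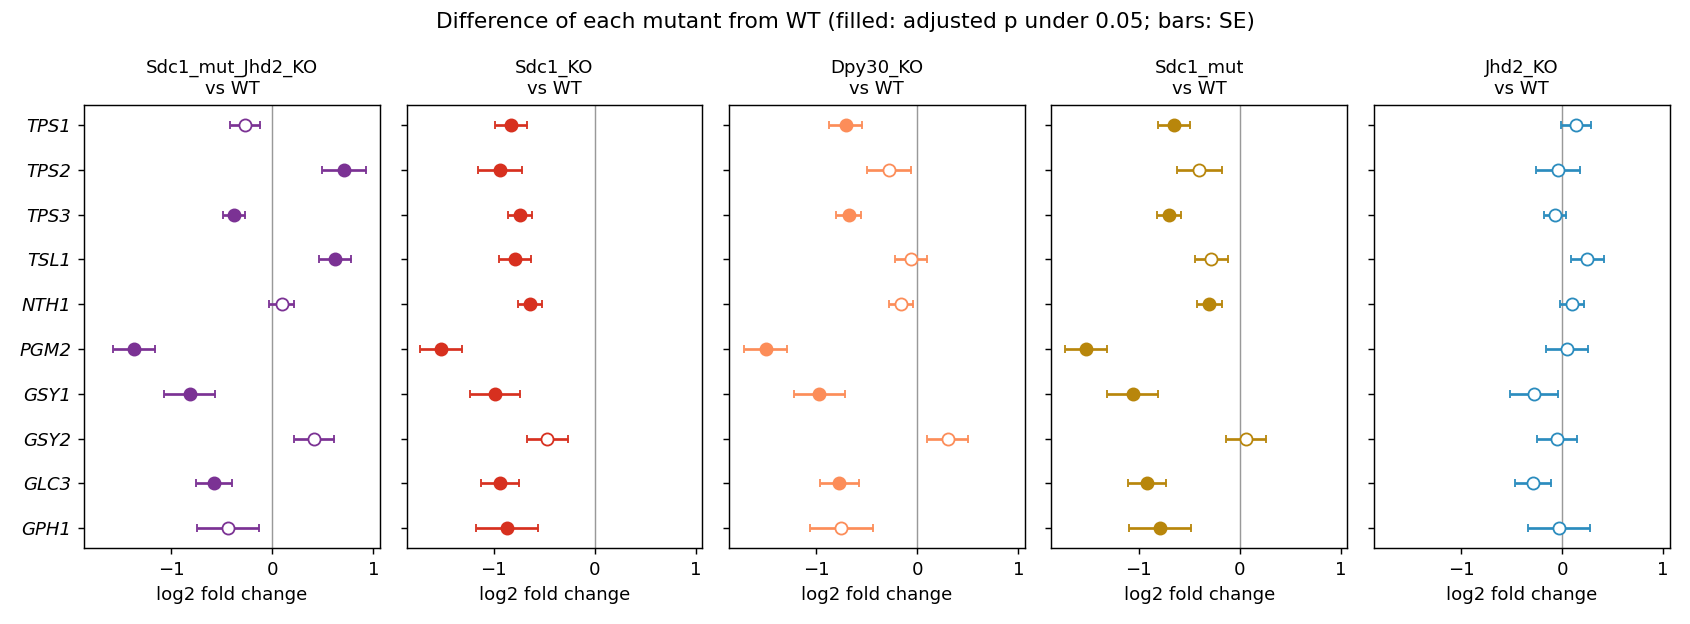
Log2 fold change against WT (x axis) of each gene (y axis) in the 5 mutants. Bars are standard errors, filled points passed an adjusted p under 0.05 and open points did not; PGM2 lay between -1.37 and -1.52 in the 4 strains with an SDC1 change and at 0.05 in Jhd2_KO.

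PGM2 was called lower against WT in each of the 4 strains with an SDC1 change under all alternatives run, including each library left out. Its log2 fold change was -1.52 in Sdc1_KO (-1.16 or -2.05 with a library of that strain left out) and -1.50 in Dpy30_KO. TPS1, TPS3 and GLC3 were likewise called lower in Sdc1_KO, Dpy30_KO and Sdc1_mut under every alternative run for those comparisons.

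Set against each other, the SDC1 alleles gave calls that depended on the Sdc1_KO libraries. Sdc1_KO kept mitochondrially encoded RNA, while Dpy30_KO and Sdc1_mut nearly lacked it. The allele and this difference cannot be told apart when Sdc1_KO is compared with them. In Sdc1_KO compared with Dpy30_KO, 4 of 10 genes were called, all lower, and 25.2% of all genes were called. These were GSY2 (-0.77 ± 0.20, adjusted p = 0.014), TSL1 (-0.73 ± 0.16, adjusted p = 0.006), TPS2 (-0.66 ± 0.22, adjusted p = 0.042) and NTH1 (-0.47 ± 0.12, adjusted p = 0.012). GLC3 (-0.17), TPS1 (-0.11), GPH1 (-0.11), TPS3 (-0.06), GSY1 (-0.02) and PGM2 (-0.02) did not pass. In Sdc1_KO compared with Sdc1_mut only TSL1 was called (-0.51 ± 0.16, adjusted p = 0.04), with 21.4% of all genes called. The others were TPS2 (-0.54), GSY2 (-0.53), NTH1 (-0.33), TPS1 (-0.17), GPH1 (-0.08), TPS3 (-0.04), GLC3 (-0.03), PGM2 (0.01) and GSY1 (0.06). None of the calls in either comparison held in a fit of the groups compared alone, where the adjusted p ran from 0.08 to 0.19. Without Sdc1_KO replicate 1, GSY1, GPH1 and PGM2 were higher in Sdc1_KO than in Dpy30_KO, by 0.41, 0.43 and 0.35, so the order of the deletion and the other alleles was not settled for these genes.

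In Dpy30_KO compared with Sdc1_mut, 0 of 10 genes were called by edgeR, 0 had an unadjusted p under 0.05, and DESeq2 and limma called 0 as well; 0.0157% of all genes were called. The log2 fold changes ran from -0.06 ± 0.15 for TPS1 to 0.24 ± 0.20 for GSY2. TSL1 was at 0.22, NTH1 at 0.14, GLC3 at 0.14, TPS2 at 0.12, GSY1 at 0.09, GPH1 at 0.03, PGM2 at 0.03 and TPS3 at 0.02.

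Deletion of JHD2 was compared with WT to ask what loss of the demethylase does on its own. In Jhd2_KO 0 of 10 genes were called by edgeR, 0 had an unadjusted p under 0.05, and DESeq2 and limma called 0, while 1.63% of all genes were called. The values ran from -0.29 ± 0.18 for GLC3 to 0.25 ± 0.16 for TSL1. Between them lay GSY1 at -0.28, TPS3 at -0.07, GSY2 at -0.05, TPS2 at -0.04, GPH1 at -0.03, PGM2 at 0.05, NTH1 at 0.10 and TPS1 at 0.14. The 10 genes had a median of -0.04, beside a median of -0.00 for all genes. In the fit of the 10 libraries other than Sdc1_KO, chosen after seeing the data, GLC3 was called lower in Jhd2_KO (-0.29 ± 0.09, adjusted p = 0.04) and GSY1 stood at -0.28 ± 0.09 (adjusted p = 0.055), with 10.7% of all genes called.

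In the point mutant the same deletion came with higher TPS2, TSL1 and NTH1. In Sdc1_mut_Jhd2_KO compared with Sdc1_mut, these 3 of 10 genes rose and none fell, while 32.5% of all genes were called and 13.2% were called higher, so the share of the 10 genes called was near that of all genes. The phosphatase gene TPS2 rose by 1.11 ± 0.22 (adjusted p = 0.0024), to 2.16 times the level of Sdc1_mut. The regulatory subunit gene TSL1 rose by 0.90 ± 0.16 (adjusted p = 0.0013) and the trehalase gene NTH1 by 0.39 ± 0.12 (adjusted p = 0.025). TPS1 stood at 0.39 ± 0.15 (adjusted p = 0.073), TPS3 at 0.32 ± 0.12 (adjusted p = 0.051), GSY2 at 0.35 ± 0.20, GLC3 at 0.34 ± 0.18, GPH1 at 0.34 ± 0.31, GSY1 at 0.23 ± 0.25 and PGM2 at 0.16 ± 0.21. All 10 genes were higher in both Sdc1_mut_Jhd2_KO libraries than in both Sdc1_mut libraries, and 72.0% of all genes had libraries that did not overlap. The median of the 10 was 0.35, beside -0.04 for all genes. The calls of TPS2 and TSL1 were kept under all alternatives run, and that of NTH1 ended without either Sdc1_mut library (adjusted p = 0.14 and 0.099) or without Sdc1_mut_Jhd2_KO replicate 1 (0.2). In the fit of the 10 libraries other than Sdc1_KO, 9 of 10 genes were called higher, all but PGM2 (0.16 ± 0.08, adjusted p = 0.14), against 44.0% of all genes called.

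Whether JHD2 deletion acted differently in the point mutant than in WT was tested as an interaction. Both strains with the point mutation nearly lacked mitochondrially encoded RNA, and Jhd2_KO and WT did not. The point mutation and this loss therefore cannot be told apart in the interaction. TPS2 was the only one of the 10 genes called, with an interaction of 1.16 ± 0.31 on the log2 scale (adjusted p = 0.02), while 20.4% of all genes were called. TSL1 stood at 0.65 ± 0.23 (adjusted p = 0.062), GLC3 at 0.62 ± 0.26 (adjusted p = 0.11) and PGM2 at 0.10 ± 0.30. The others were GSY1 (0.51), GSY2 (0.40), TPS3 (0.39), GPH1 (0.37), NTH1 (0.29) and TPS1 (0.25). The call of TPS2 ended when any 1 library of the 4 strains was left out, other than WT replicate 2, with an adjusted p of 0.054 to 0.083 and a value of 1.08 to 1.21. In the fit of the 10 libraries other than Sdc1_KO, 7 of 10 genes were called, all positive, against 33.3% of all genes. These were TPS2 (1.16 ± 0.12, adjusted p = 2.1e-06), TSL1 (0.65 ± 0.12), GLC3 (0.62 ± 0.12), GSY1 (0.51 ± 0.13), GSY2 (0.40 ± 0.13), TPS3 (0.39 ± 0.13) and GPH1 (0.37 ± 0.12).

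**Figure D4:**
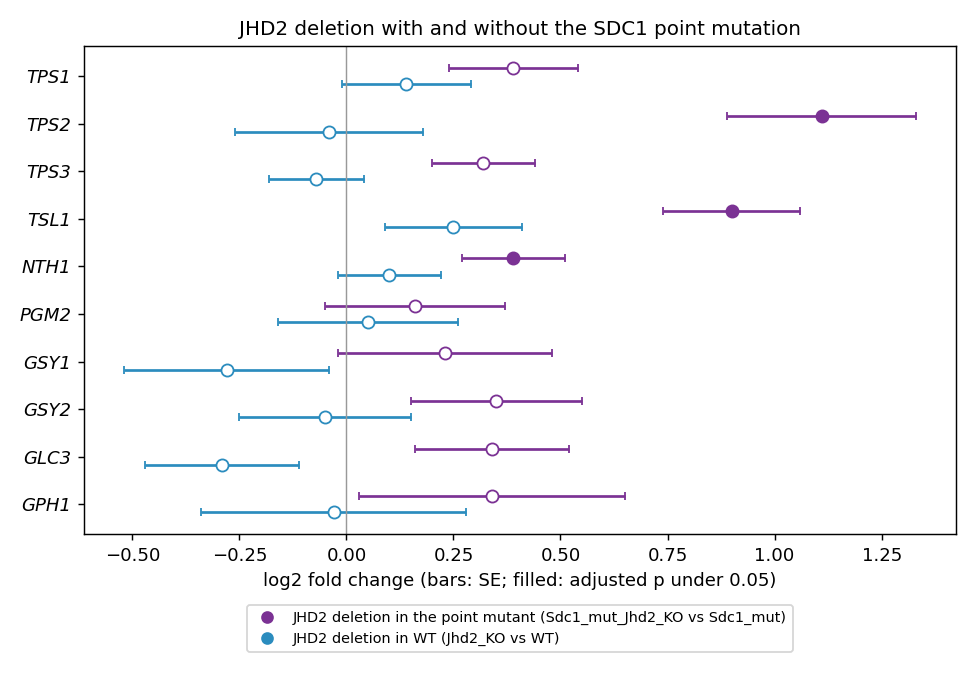
Log2 fold change on JHD2 deletion (x axis) for each gene (y axis), in the point mutant (Sdc1_mut_Jhd2_KO against Sdc1_mut, purple) and in the wild type (Jhd2_KO against WT, blue). Bars are standard errors and filled points passed an adjusted p under 0.05; TPS2 lay at 1.11 in the point mutant and at -0.04 in WT.

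Against WT, the strain with both changes had some genes above and some below. In Sdc1_mut_Jhd2_KO 2 of 10 genes rose and 4 fell, while 59.2% of all genes were called, 29.1% higher and 30.1% lower. TPS2 rose by 0.71 ± 0.22 (adjusted p = 0.014) and TSL1 by 0.62 ± 0.16 (adjusted p = 0.005). PGM2 fell by 1.37 ± 0.21 (adjusted p = 0.00014), GSY1 by 0.82 ± 0.25, GLC3 by 0.58 ± 0.18 and TPS3 by 0.38 ± 0.11. TPS1 (-0.27 ± 0.15), GPH1 (-0.44 ± 0.31), NTH1 (0.09 ± 0.12) and GSY2 (0.41 ± 0.20) did not pass. In the fit of the 10 libraries other than Sdc1_KO, 9 of 10 genes were called, against 66.6% of all genes: TPS1 (adjusted p = 0.0059) and GPH1 (0.00015) were then also lower and GSY2 (0.00054) also higher. Without WT replicate 1 the calls of GSY1 (adjusted p = 0.063), GLC3 (0.1) and TPS3 (0.11) ended, and without WT replicate 2 those of TPS2 (0.084) and TSL1 (0.051) ended. Without Sdc1_mut_Jhd2_KO replicate 1 the calls of TPS2, GSY1 and GLC3 ended, and without replicate 2 those of TPS3, GSY1 and GLC3.

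Sdc1_mut_Jhd2_KO and Jhd2_KO both lack JHD2 and differ in the point mutation. They also differ in mitochondrially encoded RNA (9 and 16 fragments against 29200 and 37856), and these differences cannot be told apart. Compared with Jhd2_KO, TPS2 was higher in Sdc1_mut_Jhd2_KO (0.75 ± 0.22, adjusted p = 0.01). PGM2 (-1.42 ± 0.21, adjusted p = 0.00011), TPS1 (-0.41 ± 0.15) and TPS3 (-0.32 ± 0.12) were lower, with 58.4% of all genes called. GSY2 (0.46), TSL1 (0.37), NTH1 (-0.01), GLC3 (-0.29), GPH1 (-0.41) and GSY1 (-0.54) did not pass. PGM2 was the only one of the 4 genes called there that was called whichever library was left out. These comparisons share the libraries of Sdc1_mut_Jhd2_KO, Sdc1_mut, Jhd2_KO or WT, so they are not independent of each other.

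The balance within pairs of related genes is given as FPKM ratios within a library, which do not depend on the scaling of that library. Differences between strains in these ratios were not tested. PGM2 had 9.58 and 10.2 times the FPKM of its paralogue PGM1, the minor phosphoglucomutase, in Sdc1_mut_Jhd2_KO, 2.81 and 5.62 times in Sdc1_KO, 5.45 and 4.87 in Dpy30_KO, 5.68 and 4.52 in Sdc1_mut and 18.0 and 18.4 in Jhd2_KO, against 17.4 and 16.2 times in WT. Against WT, PGM1 itself was at -0.65 ± 0.09 in Sdc1_mut_Jhd2_KO (adjusted p = 7.3e-05) and at 0.53 ± 0.09 in Sdc1_KO (adjusted p = 0.0005). In Sdc1_mut_Jhd2_KO compared with Sdc1_mut, PGM1 was at -0.86 ± 0.09 (adjusted p = 5.8e-05). The higher ratio of the double mutant than of Sdc1_mut thus came with a lower PGM1 level.

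GSY2 stood at 0.752 and 0.728 of the FPKM of GSY1 in Sdc1_mut_Jhd2_KO, 0.521 and 0.442 in Sdc1_KO, 0.768 and 0.765 in Dpy30_KO, 0.729 and 0.657 in Sdc1_mut and 0.380 and 0.366 in Jhd2_KO, against 0.307 and 0.326 in WT. Every mutant lay above WT in this ratio. TSL1 stood at 5.14 and 5.04 times TPS3 in Sdc1_mut_Jhd2_KO, 2.13 and 2.76 in Sdc1_KO, 4.02 and 3.74 in Dpy30_KO, 3.52 and 3.26 in Sdc1_mut and 3.16 and 3.21 in Jhd2_KO, against 2.58 and 2.55 in WT. The Sdc1_KO libraries lay on either side of WT, and the other mutants lay above it.

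The synthase and phosphatase genes were closest in the double mutant. TPS1 stood at 1.06 and 1.10 times TPS2 in Sdc1_mut_Jhd2_KO, 2.77 and 2.26 in Sdc1_KO, 1.55 and 1.68 in Dpy30_KO, 1.76 and 1.93 in Sdc1_mut and 2.50 and 2.42 in Jhd2_KO, against 2.06 and 2.22 in WT. How the authors' counting treated reads that fit both paralogues is not given in the sources used here. GSY1 and GSY2 match at 73.5% of 2061 aligned bases, PGM2 and PGM1 at 73.0% of 1724, NTH1 and NTH2 at 72.5% of 2149, and TPS3 and TSL1 at 68.8% of 1729 in their longest alignment. No annotated gene overlaps any of the 10 in RefSeq. The file also lists YPR160C-A (776 to 4845 fragments per library) and YBR126W-B (347 to 1752), which carry the numbers of GPH1 and TPS1 and were not placed by the annotation, and whether they share reads with these genes was not tested.

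**Figure D5:**
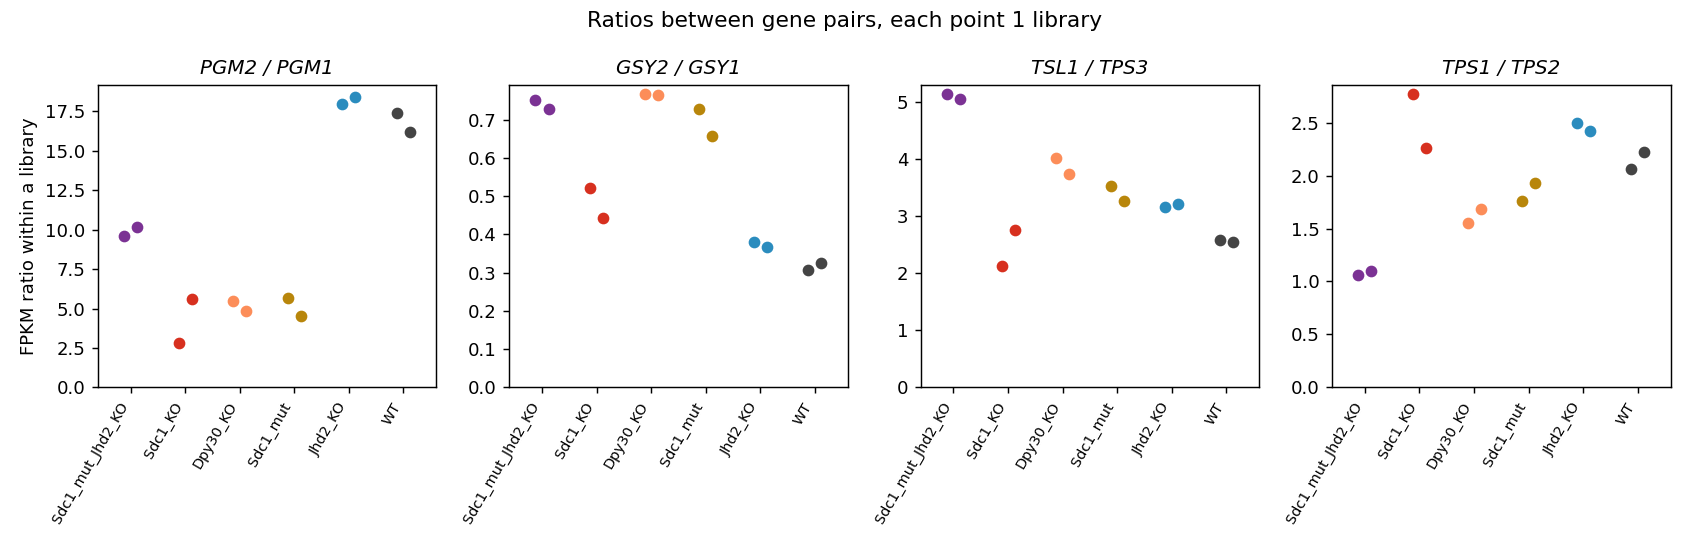
FPKM ratio of 4 gene pairs (y axis, from 0) by strain (x axis), each point 1 library. PGM2 / PGM1 was 2.81 to 5.68 in Sdc1_KO, Dpy30_KO and Sdc1_mut, against 16.2 and 17.4 in WT, and TPS1 / TPS2 was lowest in Sdc1_mut_Jhd2_KO, at 1.06 and 1.10.

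Across the 12 libraries the 10 genes followed more than 1 pattern. These correlations are of log2 CPM, over libraries that share strains and total RNA, and are given as a description. GSY1 and GLC3 (r = 0.98), TPS1 and TPS3 (0.96) and GSY1 and GPH1 (0.95) ran closely together, and PGM2 followed them (0.94 with GSY1). TPS2 ran with TSL1 (0.97), and NTH1 with TSL1 (0.93). GSY2 ran with TPS2 (0.84) and TSL1 (0.80) and hardly with PGM2 (0.08) or with its own paralogue GSY1 (0.28).

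Among 5738 other genes ranked over the same 12 libraries, GPD1 (r = 0.987), which makes glycerol 3-phosphate, RAS2 (0.982), OSH2 (0.981), YGR130C (0.978) and VHS1 (0.976) were most like the mean of the 10. The closest to TSL1 were RAD16 (0.970), SHE4 (0.959), HRK1 (0.957), BDF2 (0.957) and HSP42 (0.950), which encodes a small heat shock protein. The closest to PGM2 were ATG21 (0.992), UGP1 (0.987), EMI2 (0.985), PSP1 (0.984) and GPT2 (0.983). UGP1 encodes the enzyme that turns glucose 1-phosphate into UDP-glucose, the step after PGM2.

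Of 8 further enzymes of the pathways, 6 were called in Sdc1_mut_Jhd2_KO against WT (1 higher, 5 lower), 5 in Sdc1_KO (2 higher, 3 lower), 3 in Dpy30_KO (1 higher, 2 lower) and 4 in Sdc1_mut (1 higher, 3 lower). The shares of all genes called in these strains were 59.2%, 50.4%, 52.4% and 52.5%, so the totals called do not set the list apart. Those called lower were 30.1%, 22.4%, 25.1% and 24.7% of all genes. UGP1 fell in all of these strains, by 0.82 ± 0.17 in Sdc1_mut_Jhd2_KO, 0.80 ± 0.17 in Sdc1_KO, 0.98 ± 0.17 in Dpy30_KO and 0.85 ± 0.17 in Sdc1_mut. SGA1, a glucoamylase gene known from sporulation that breaks down glycogen, rose in the same strains, by 1.83 ± 0.14 in Sdc1_mut_Jhd2_KO (adjusted p = 5.1e-07), 0.58 ± 0.14 in Sdc1_KO, 1.29 ± 0.14 in Dpy30_KO and 0.95 ± 0.14 in Sdc1_mut. Its level stayed low, at 41.8 and 34.4 FPKM in Sdc1_mut_Jhd2_KO, against 10.4 and 10.7 FPKM in WT. The acid trehalase gene ATH1 fell by 0.41 ± 0.09 in Sdc1_KO, 0.24 ± 0.09 in Dpy30_KO and 0.37 ± 0.09 in Sdc1_mut. NTH2, the second neutral trehalase gene, had an interaction of -0.41 ± 0.12 (adjusted p = 0.033), the opposite sign to that of NTH1 (0.29 ± 0.17, adjusted p = 0.25). Of the glycogenin genes, which prime glycogen, GLG2 fell by 0.63 ± 0.12 in Sdc1_mut_Jhd2_KO, and GLG1 fell by 0.44 ± 0.11 in Sdc1_KO and 0.40 ± 0.11 in Sdc1_mut. The debranching enzyme gene GDB1, named after its values were seen, was at -0.27 ± 0.13 in Sdc1_KO (adjusted p = 0.1) and at 0.09 ± 0.13 in Sdc1_mut_Jhd2_KO (adjusted p = 0.56).

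Upstream of PGM2, 4 genes of glucose phosphorylation were listed, and 3 fell in Sdc1_mut_Jhd2_KO, 3 in Sdc1_KO, 2 in Dpy30_KO and 3 in Sdc1_mut. Among all genes tested, 30.1%, 22.4%, 25.1% and 24.7% were called lower in these strains. EMI2, a hexokinase homologue, fell by 1.02 ± 0.21 in Sdc1_mut_Jhd2_KO, 1.31 ± 0.21 in Sdc1_KO, 1.13 ± 0.21 in Dpy30_KO and 1.08 ± 0.21 in Sdc1_mut. The hexokinase gene HXK2 fell by 1.37 ± 0.11 in Sdc1_mut_Jhd2_KO (adjusted p = 7.3e-07) and by 0.66 ± 0.11 in Sdc1_KO. Its homologue HXK1 fell by 1.09 ± 0.26 in Sdc1_mut_Jhd2_KO, 0.94 ± 0.26 in Dpy30_KO and 0.88 ± 0.26 in Sdc1_mut. HXK1 also fell by 0.67 ± 0.26 in Sdc1_KO (adjusted p = 0.05, under the threshold before rounding).

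Of 11 genes that regulate glycogen synthase through the phosphatase Glc7 or the kinase Pho85, 9 fell and 1 rose in Sdc1_mut_Jhd2_KO, 6 fell and 1 rose in Sdc1_KO, 5 fell and 1 rose in Dpy30_KO and 5 fell in Sdc1_mut. For all genes, the shares called in these strains were 59.2%, 50.4%, 52.4% and 52.5%, and the shares called lower were 30.1%, 22.4%, 25.1% and 24.7%. The Pho85 cyclin gene PCL8 fell by 0.79 ± 0.17 in Sdc1_mut_Jhd2_KO, 1.34 ± 0.18 in Sdc1_KO, 1.15 ± 0.18 in Dpy30_KO and 1.12 ± 0.18 in Sdc1_mut. Of the other Pho85 cyclins, PCL6 fell by 1.23 ± 0.11 and PCL7 by 1.14 ± 0.12 in Sdc1_mut_Jhd2_KO. PCL6 also fell by 0.67 ± 0.11 in Sdc1_KO, 0.86 ± 0.11 in Dpy30_KO and 0.86 ± 0.11 in Sdc1_mut. PCL7 fell there by 0.61 ± 0.12, 0.88 ± 0.12 and 0.96 ± 0.12. PIG1, a Glc7 targeting subunit, fell by 0.72 ± 0.17 in Sdc1_mut_Jhd2_KO compared with Sdc1_mut (adjusted p = 0.0059).

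Of 13 trehalase inhibitors and signalling kinases, 11 were called in Sdc1_mut_Jhd2_KO (4 higher, 7 lower), 8 in Sdc1_KO (all lower), 10 in Dpy30_KO (2 higher, 8 lower) and 9 in Sdc1_mut (2 higher, 7 lower). These comparisons called 59.2%, 50.4%, 52.4% and 52.5% of all genes, and called 30.1%, 22.4%, 25.1% and 24.7% lower. PSK2, a kinase that acts on glucose partitioning, rose by 1.11 ± 0.13 in Sdc1_mut_Jhd2_KO (adjusted p = 1.3e-05) and by 0.75 ± 0.13 in Dpy30_KO.

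Of 7 transcription factor genes, 2 were called in Sdc1_mut_Jhd2_KO (1 higher, 1 lower), and 5 in Sdc1_KO, 2 in Dpy30_KO and 3 in Sdc1_mut, all lower. Beside these stand 59.2%, 50.4%, 52.4% and 52.5% of all genes called, and 30.1%, 22.4%, 25.1% and 24.7% called lower. MSN2 was called lower in Sdc1_mut_Jhd2_KO (-0.40 ± 0.11), Dpy30_KO (-0.28 ± 0.11) and Sdc1_mut (-0.32 ± 0.11), with adjusted p-values of 0.0067, 0.045 and 0.027. In Sdc1_KO it did not pass (-0.27 ± 0.11, adjusted p = 0.055). MSN4 was called lower in Sdc1_KO (-0.35 ± 0.12, adjusted p = 0.025) and did not pass in Dpy30_KO (0.29 ± 0.12, adjusted p = 0.054). Compared with Jhd2_KO, Sdc1_mut_Jhd2_KO had higher MSN4 (0.43 ± 0.12, adjusted p = 0.0075) and lower MSN2 (-0.45 ± 0.11, adjusted p = 0.004). The interaction of MSN4 was 0.52 ± 0.17 (adjusted p = 0.043). MIG1, a glucose repressor, rose by 1.14 ± 0.09 in Sdc1_mut_Jhd2_KO (adjusted p = 8.3e-07) and fell by 0.76 ± 0.09 in Sdc1_KO (adjusted p = 4.9e-05).

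Of 13 general stress reporter genes, 4 rose and 1 fell in Sdc1_mut_Jhd2_KO, 10 fell in Sdc1_KO, 8 fell in Dpy30_KO and 8 fell in Sdc1_mut. Across all genes, 59.2%, 50.4%, 52.4% and 52.5% were called in these strains. Those called lower were 30.1%, 22.4%, 25.1% and 24.7%, and 29.1% were called higher in Sdc1_mut_Jhd2_KO. Compared with Sdc1_mut, 8 of the 13 rose in Sdc1_mut_Jhd2_KO and none fell, while 32.5% of all genes were called and 13.2% were called higher. The median log2 fold change of the 13 was 1.10, beside 0.35 for the 10 trehalose and glycogen genes and -0.04 for all genes. The small heat shock protein gene HSP26 rose by 2.89 ± 0.32 there (adjusted p = 6.5e-05), HSP42 by 1.68 ± 0.23, the catalase gene CTT1 by 1.66 ± 0.36 and DDR2 by 1.49 ± 0.19. Against WT, CTT1 was at -1.83 ± 0.37 in Sdc1_KO, -2.07 ± 0.37 in Dpy30_KO and -2.08 ± 0.37 in Sdc1_mut, all 3 called. In these lists a count of genes that fell is to be read beside the share of all genes called lower. For the stress reporters the share that fell was above it in Sdc1_KO, Dpy30_KO and Sdc1_mut. No list was tested as a set, and a share near that of all genes does not set a list apart.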

How the data were processed

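RNA of 12 libraries (2 for each of 6 strains) was analysed as the authors' deposited estimated counts of fragments per gene and their FPKM values. Per the submitters' processing notes these came from bcl2fastq 2.17.1.14, TopHat and Cufflinks on sacCer3; the annotation and strand setting are not given in the sources used here. Of 7126 identifiers, 14 with a depth flag in place of an estimate were left out, and 6361 of the remaining 7112 passed the count filter of edgeR. The estimated counts were 97.8% whole, those of the 10 genes all whole, and were rounded. No column of sample values was left unused (0). Depth was 8652878 to 26041718 fragments per library, and the common biological coefficient of variation was 10.2%.

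The main test was edgeR 4.0.16 quasi-likelihood (R 4.3.3, TMM scaling, 1 fit of all 6 groups, no block), with Benjamini-Hochberg adjustment over all genes tested and a threshold of 0.05. On simulated data for Sdc1_KO against WT (6327 genes), 100% of genes with a log2 change of 1 or 2 in either direction and 0.163% of unchanged genes were called. The simulation gave every gene the same spread, changed few genes and set no library apart, unlike the Sdc1_KO libraries here. It checks that the code runs as meant and does not give the power or error rate in these data. Alternatives were RLE scaling, no count filter, DESeq2 1.42.0, limma 3.58.1, a replicate block, only the groups compared, each library left out and, chosen after seeing the data, the 10 libraries other than Sdc1_KO. CPM were computed from the counts and TMM-scaled library totals; the ratios use the deposited FPKM. Paralogues were aligned with blastn 2.17.0, and 6046 identifiers matched RefSeq.

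All 10 genes are named in every comparison. From each further list, the genes named, except GDB1, are a selection from the up to 4 called genes per comparison with the largest change and a mean of at least 5 CPM. Also named are the 5 genes most like the mean of the 10, TSL1 and PGM2. The genes and lists were chosen with earlier results of these data known.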

Additional observations from a re-analysis of the deposited data

Results flagged for a closer look

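The effect of JHD2 deletion on TPS2 differed between the point mutant and the wild type, by a test of the difference itself: the interaction was 1.16 ± 0.31 on the log2 scale (edgeR's quasi-likelihood test, adjusted p = 0.02). TPS2 was at 1.11 ± 0.22 in Sdc1_mut_Jhd2_KO compared with Sdc1_mut and at -0.04 ± 0.22 in Jhd2_KO compared with WT. Sdc1_mut_Jhd2_KO and Sdc1_mut nearly lacked mitochondrially encoded RNA, and Jhd2_KO and WT did not. The point mutation and this loss cannot be told apart here. At the same threshold 20.4% of all genes were called for this interaction. The value was positive under all 15 alternatives run, but the call was kept in 8 of them. It ended in 7 of the 8 fits that left out 1 library, with an adjusted p of 0.054 to 0.083, and was kept without WT replicate 2. No test for a library far from the others was made, since each strain had 2 libraries.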

How the results depend on the processing

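For the 10 genes, 1068 of 1220 values kept their side of the threshold, with no change of sign where either fit made a call. Some of these changed sign with no call in either fit, as GLC3 did in Sdc1_KO against Dpy30_KO (-0.17, and up to 0.14). Another 63 lost the call and 83 gained it. The remaining 6 reversed, meaning that the sign changed and either fit made a call. All 6 reversals came from leaving out a Sdc1_KO library. In Sdc1_KO against Dpy30_KO, leaving out replicate 1 or replicate 2 gave 0.41 or -0.67 for GSY1, 0.43 or -1.04 for GPH1 and 0.35 or -0.55 for PGM2. In Sdc1_KO against Sdc1_mut it gave 0.50 or -0.59 for GSY1, 0.48 or -1.0 for GPH1 and 0.38 or -0.52 for PGM2. The cause was not tested. Counts below are of the 10 genes unless all genes are named. A count given without the share of all genes called in the same fit does not set the 10 genes apart. DESeq2 called 5 in Sdc1_mut_Jhd2_KO against Sdc1_mut, 4 in Sdc1_KO against Sdc1_mut and 3 for the interaction, and of all genes 271 in Jhd2_KO against WT (main 104) and 3 in Dpy30_KO against Sdc1_mut (main 1), where limma-trend called 2. RLE scaling called 2 for the interaction. With only the groups compared, 8 were called in Dpy30_KO against WT, 10 in Sdc1_mut_Jhd2_KO against Sdc1_mut, 9 in Sdc1_mut_Jhd2_KO against Jhd2_KO, 0 in Sdc1_KO against Dpy30_KO, 0 in Sdc1_KO against Sdc1_mut and 7 for the interaction. Of all genes that setting called 2036 in Sdc1_KO against WT (main 3208), 623 in Jhd2_KO against WT, 500 in Sdc1_KO against Dpy30_KO (main 1603), 454 in Sdc1_KO against Sdc1_mut (main 1360), 17 in Dpy30_KO against Sdc1_mut and 2130 for the interaction (main 1297). The 10 libraries other than Sdc1_KO, chosen after seeing the data, gave 8 in Dpy30_KO against WT, 1 in Jhd2_KO against WT, 9 in Sdc1_mut_Jhd2_KO against Sdc1_mut, 9 in Sdc1_mut_Jhd2_KO against Jhd2_KO and 7 for the interaction, and of all genes 678, 22 and 2115 in Jhd2_KO against WT, Dpy30_KO against Sdc1_mut and the interaction. Leaving out 1 library gave 1 to 9 in Sdc1_KO against Dpy30_KO, 0 to 9 in Sdc1_KO against Sdc1_mut, 1 to 2 in Sdc1_mut_Jhd2_KO against Jhd2_KO, 3 to 4 in Sdc1_mut_Jhd2_KO against WT and 0 to 1 for the interaction. Of all genes it gave 1 to 2 in Dpy30_KO against Sdc1_mut, 5 to 26 in Jhd2_KO against WT, 804 to 2236 in Sdc1_KO against Dpy30_KO, 646 to 2142 in Sdc1_KO against Sdc1_mut, 1100 to 1450 in Sdc1_mut_Jhd2_KO against Sdc1_mut (main 2069) and 580 to 1068 for the interaction. A strain left with 1 library was assumed to vary like the others.

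The replicate numbers did not pair the libraries: over 15 pairs of strains the correlation of deviations ran from -0.13 to 0.16, and 4 were over 0.1. With the replicate block 164 genes were called in Jhd2_KO against WT, and of the 10 genes the block changed only the call of GPH1 in Sdc1_mut (adjusted p = 0.052).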
